A study of Mus musculus with 10 samples.

Results

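Polycomb proteins form a small number of chromatin complexes that keep developmental genes silent, and 31 mouse genes for their subunits were followed in embryonic stem cells with changes in Mbd3. The 31 genes were chosen by name, as subunits of Polycomb repressive complexes 2 and 1 (PRC2 and PRC1) and of the opposing deubiquitinase PR-DUB, wherever a deposited table listed them, among 8694 distinct gene symbols listed in any table. Of the 31, 22 were listed in at least 1 table and 9 in none. PRC2 was represented by 9 genes, the catalytic subunits shared by all PRC1 forms by 2, canonical PRC1 by 9, variant PRC1 by 8 and PR-DUB by 3.

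After removal of ribosomal RNA, 10 RNA libraries were sequenced, 2 biological replicates in each of 5 groups, all of the E14 mouse embryonic stem cell line grown on gelatin. The wild type carried no change in Mbd3, whose product belongs to the methyl-CpG binding domain family and to the NuRD complex, a chromatin remodeller and histone deacetylase, and which makes the isoforms a, b and c. Cas9 was aimed at exon 2 for the Mbd3ab KO line (genotype Mbd3ab -/-) and also for the Mbd3cΔN-ab KO line (genotype Mbd3cdeltaN; ab-/-), at intron 2 for the Mbd3c KO line (Mbd3c -/-), and at exon 5 for the Mbd3abc KO line (Mbd3abc -/-). The labels do not say how many clones each line represents, so the p-values measure the spread between these libraries, which may be technical or clonal. The series title names a NuRD form of embryonic stem cells that interacts with Wdr5, and 1 pair of wild type libraries served as control for all 4 mutants. Mbd3 itself was 2.61-fold lower in Mbd3ab KO, 13.0-fold lower in Mbd3abc KO and 5.57-fold lower in Mbd3cΔN-ab KO, and it was not listed for Mbd3c KO. Total reads ranged from 0.94 to 1.59 times those of the first wild type library over the 6 libraries that gave values for the Polycomb genes. Of the stem cell markers Pou5f1, Sox2, Nanog, Zfp42, Esrrb and Klf4, 4 of 6 were called in Mbd3abc KO, where 52.1% of all genes tested were. Pou5f1 (a mean of 11258 normalized reads in wild type and 3731 in the mutant) and Esrrb (11975 and 6324) were lower, and Sox2 (3942 and 5520) and Klf4 (2418 and 4707) were higher.

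As background, PRC2 methylates lysine 27 of histone H3 (H3K27) through Ezh1 or Ezh2, with Eed and Suz12 as obligatory partners, and accessory subunits guide it to DNA rich in CpG sites. PRC1 attaches ubiquitin to histone H2A through Ring1 or Rnf2. Canonical PRC1 holds a Cbx protein, which reads methylated H3K27, and a Phc protein, which compacts chromatin, while variant PRC1 holds Rybp or Yaf2 in place of Cbx and carries out most of the ubiquitination in embryonic stem cells. PR-DUB, built of Bap1 and an Asxl protein, removes that ubiquitin.

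None of the 31 genes was listed for Mbd3ab KO, where 3.35% of the genes tested had an adjusted p under 0.05 in the authors' DESeq2 test, and none for Mbd3c KO, where 0.353% were called. A count of 0 of 31 by the authors' DESeq2 test lies near those background shares. In Mbd3abc KO 22 of the 31 (71.0%) were called, 12 higher and 10 lower, against 52.1% of all genes tested. In Mbd3cΔN-ab KO 21 of the 31 (67.7%) were called, 11 higher and 10 lower, against 41.5% of all genes tested. By mean level, 19 of the 22 lay above the median of the called genes of Mbd3abc KO, and genes with more reads are more readily called. Called higher and called lower were 27.1% and 24.9% of all genes in the first of these mutants, and 21.1% and 20.4% in the second. The 9 genes listed nowhere were Ezh2, Phf1, Phf19, Ring1, Pcgf1, Pcgf2, Pcgf6, Cbx8 and Kdm2b, and whether they were expressed too low to be tested or were tested and not called is not known here. The same 2 wild type libraries stand in both comparisons, so the 2 lists of calls are given side by side and no overlap is read from them.

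The direction of change differed by complex in the counts. Of the called PRC2 genes 4 rose and 2 fell in Mbd3abc KO, and 3 rose and 2 fell in Mbd3cΔN-ab KO. Called canonical PRC1 genes mostly fell, 5 of 7 in each mutant, with a median log2 ratio of mutant to wild type means of -0.81 in Mbd3abc KO and -0.39 in Mbd3cΔN-ab KO. Called variant PRC1 genes mostly rose, 4 of 5 in each mutant, with medians of 1.06 and 0.79. The median over all called genes was 0.47 in Mbd3abc KO and 0.38 in Mbd3cΔN-ab KO, close to the medians of 0.50 and 0.52 over the called Polycomb genes. The Polycomb genes changed somewhat less in size than called genes at large, with a median absolute log2 ratio of 1.0 against 1.20 in Mbd3abc KO and of 0.78 against 0.95 in Mbd3cΔN-ab KO. Changes of at least 2-fold made up 11 of the 22 and 4 of the 21 calls, against 61.7% and 45.7% of all called genes. The genes were not matched for level, and 19 of the 22 and 16 of the 21 lay above the median level of called genes. Of all called genes, 52.1% in Mbd3abc KO and 50.9% in Mbd3cΔN-ab KO were higher. These counts over called genes describe the classes and were not tested against each other. Direction also went with the GC content of the transcript, as described below, and its part in the split by complex was not tested.

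**Figure D1:**
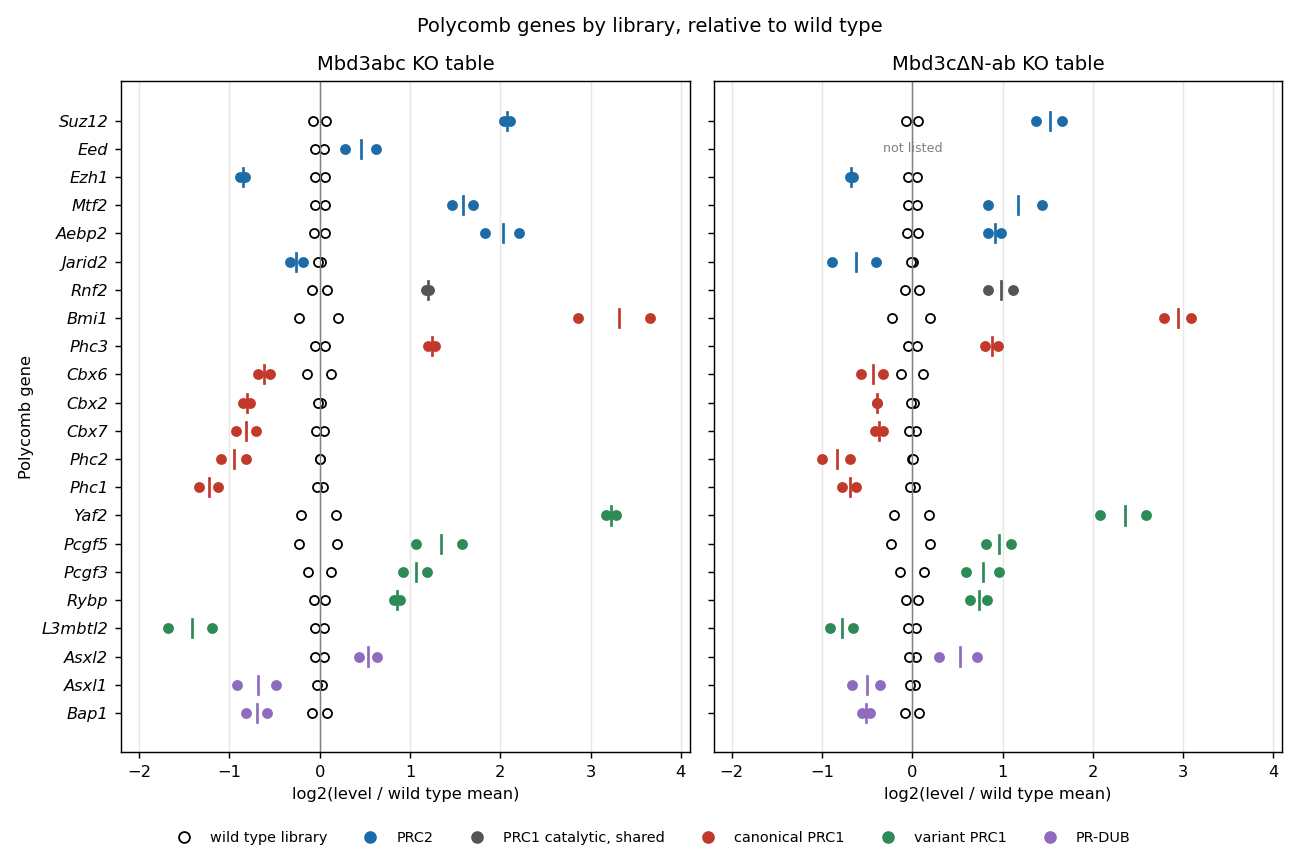
Each point is the level of a Polycomb gene in 1 library, as log2 of its ratio to the wild type mean, for the Mbd3abc KO table (left) and the Mbd3cΔN-ab KO table (right). Open circles are the 2 wild type libraries, filled circles the 2 mutant libraries coloured by complex, and vertical ticks the log2 of the mutant mean. Bmi1 and Yaf2 lie farthest to the right, at 3.31 and 3.23 in Mbd3abc KO, and L3mbtl2 farthest to the left, at -1.42.

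Promoter windows of 4 genes are shown because the results turn on them: Suz12 and Bmi1, which rose most in PRC2 and in canonical PRC1, L3mbtl2, which fell most in Mbd3abc KO, and Cbx7, which fell and is the main Cbx reader of these cells. Each is the 250 bases before the transcription start on the gene's own strand, from RefSeq on build GRCm38.p6. Capitals mark CG dinucleotides, and neither their methylation nor binding of Mbd3 to them was measured in these RNA libraries. The windows lie at chr11:79992856-79993105 (plus strand) for Suz12, chr2:18676768-18677017 (plus) for Bmi1, chr15:81663639-81663888 (plus) for L3mbtl2 and chr15:79932647-79932896 (minus) for Cbx7.
Suz12 (rose): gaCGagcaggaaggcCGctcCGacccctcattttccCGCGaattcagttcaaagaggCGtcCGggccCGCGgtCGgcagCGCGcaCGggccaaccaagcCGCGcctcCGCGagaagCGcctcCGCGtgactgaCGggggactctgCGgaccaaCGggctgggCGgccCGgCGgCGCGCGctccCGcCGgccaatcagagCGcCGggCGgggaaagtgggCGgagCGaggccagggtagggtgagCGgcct
Bmi1 (rose): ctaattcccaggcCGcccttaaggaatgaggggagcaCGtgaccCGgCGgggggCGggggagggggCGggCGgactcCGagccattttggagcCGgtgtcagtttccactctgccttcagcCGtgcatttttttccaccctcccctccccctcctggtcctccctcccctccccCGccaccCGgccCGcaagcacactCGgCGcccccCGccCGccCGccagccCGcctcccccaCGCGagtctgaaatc
L3mbtl2 (fell): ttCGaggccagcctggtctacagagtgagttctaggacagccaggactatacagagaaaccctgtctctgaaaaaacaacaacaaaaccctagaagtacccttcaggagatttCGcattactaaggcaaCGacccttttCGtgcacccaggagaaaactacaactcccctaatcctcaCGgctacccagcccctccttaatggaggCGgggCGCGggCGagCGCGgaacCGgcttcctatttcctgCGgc
Cbx7 (fell): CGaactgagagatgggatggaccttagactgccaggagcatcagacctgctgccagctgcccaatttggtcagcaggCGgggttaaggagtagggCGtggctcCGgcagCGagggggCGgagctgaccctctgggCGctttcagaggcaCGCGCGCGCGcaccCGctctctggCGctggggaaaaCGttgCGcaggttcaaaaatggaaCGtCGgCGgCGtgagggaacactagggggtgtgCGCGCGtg
The windows held 37, 21, 13 and 23 CG dinucleotides, with a GC content of 73.6%, 70.4%, 54.0% and 64.8%. All 4 exceeded the median of 6 CG dinucleotides over 32851 RefSeq windows of the same length. A window was found for 19 of the 22 called genes. In the 10 that rose in Mbd3abc KO the median number of CG dinucleotides was 18 and ranged from 1 in Aebp2 to 37 in Suz12, and in the 9 that fell the median was 14 and ranged from 1 in Phc2 to 43 in Bap1. CG-poor and CG-rich promoters occurred in both directions. The E-box CACGTG, searched on both strands, lay in 2 windows of genes that rose, among them that of Bmi1, and in 2 of genes that fell, against 6.02% of all windows. TATAAA lay in 0 and 1 windows (12.4% of all), CCGGAAG, the core of ETS factor sites, in 1 and 1 (6.91%), and CGCCATNTT, a Yy1 site, in 0 and 0 (1.12%).

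In the core of PRC2, Suz12 rose and Ezh1 fell. Levels below are reads divided by size factors (normalized reads), with the Mbd3cΔN-ab KO libraries brought to the scale of the Mbd3abc KO table through the shared wild type libraries. Suz12, the scaffold on which PRC2 assembles (chr11:79993106-80034123 on mm10), stood at 1022 and 924 normalized reads in wild type, 4007 and 4199 in Mbd3abc KO, and 2514 and 3082 in Mbd3cΔN-ab KO. All 4 mutant libraries lay far above both wild type libraries, 4.22-fold higher by group means in Mbd3abc KO and 2.88-fold in Mbd3cΔN-ab KO. The authors' deposited table gave DESeq2 log2 fold changes of 2.06 ± 0.12 (SE) and 1.49 ± 0.17, with adjusted p = 2.84e-62 and 5.69e-16. Less RNA per cell and fewer cells with the RNA cannot be told apart in any of these bulk libraries.

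Ezh1 is the methyltransferase of PRC2 that is the less active relative of Ezh2. Its levels were 1063 and 985 normalized reads in wild type, 576 and 557 in Mbd3abc KO, and 649 and 632 in Mbd3cΔN-ab KO. The 4 mutant libraries were low and close to each other, 1.81-fold and 1.60-fold below wild type by group means, with adjusted p = 1.94e-10 and 2.29e-06 by DESeq2 in the authors' deposited table. Eed, the subunit that binds methylated H3K27, was called only for Mbd3abc KO, at 1455 and 1363 normalized reads in wild type and 1706 and 2164 in the mutant, 1.37-fold higher (adjusted p = 0.0315, DESeq2, the authors' deposited table). The 2 mutant libraries of Eed differed from each other by more than the lower one differed from wild type. Whether its change differed between the mutants was not tested, since Eed has no Mbd3cΔN-ab KO value here.

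The accessory subunits of PRC2 moved in both directions. Mtf2, a Polycomb-like protein that binds DNA rich in CpG, rose in both mutants. It stood at 1389 and 1285 normalized reads in wild type, 4336 and 3690.0 in Mbd3abc KO, and 2389 and 3612 in Mbd3cΔN-ab KO, which is 3.0-fold and 2.24-fold higher. The 2 Mbd3cΔN-ab KO libraries lay apart, with only the second near the Mbd3abc KO level. Aebp2, a zinc finger subunit of the PRC2 form that also holds Jarid2 (chr6:140622663-140655481), was at 646 and 590.5 normalized reads in wild type, 2847 and 2205 in Mbd3abc KO, and 1104 and 1224 in Mbd3cΔN-ab KO. The 3 groups followed each other without overlap, 4.08-fold above wild type in Mbd3abc KO and 1.88-fold in Mbd3cΔN-ab KO. Its partner Jarid2, which helps to recruit PRC2 and stimulates it, was lower, with 10516 and 10307 normalized reads in wild type, 8282 and 9140.2 in Mbd3abc KO, and 5627 and 7857 in Mbd3cΔN-ab KO. The fall of Jarid2 was 1.20-fold and 1.54-fold. For Mbd3abc KO the authors' deposited table gave log2 fold changes by DESeq2 of 1.57 ± 0.15 (SE) for Mtf2, 1.99 ± 0.20 for Aebp2 and -0.26 ± 0.11 for Jarid2, with adjusted p = 5.49e-23, 6.29e-22 and 0.0421. For Mbd3cΔN-ab KO the authors' deposited table gave 1.10 ± 0.25, 0.90 ± 0.15 and -0.60 ± 0.21, with adjusted p = 4.55e-05, 8.53e-09 and 0.013 by DESeq2.

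Of the 2 catalytic subunits shared by all PRC1 forms, Rnf2 rose and Ring1 was not listed. Rnf2 (Ring1B), the main ubiquitin ligase for H2A in embryonic stem cells, stood at 707 and 631 normalized reads in wild type, 1547 and 1519 in Mbd3abc KO, and 1198 and 1449 in Mbd3cΔN-ab KO. All mutant libraries were higher than both wild type libraries, 2.29-fold and 1.98-fold by group means. The adjusted p of DESeq2 in the authors' deposited table was 7.73e-19 and 4.77e-07.

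Among the canonical PRC1 genes, 3 of the 4 Cbx readers fell in both mutants, and the other, Cbx8, was not listed. Cbx7, the main Cbx protein of embryonic stem cells, was at 1728 and 1625 normalized reads in wild type, 1026 and 881 in Mbd3abc KO, and 1258 and 1341 in Mbd3cΔN-ab KO, 1.76-fold and 1.29-fold lower. Cbx2, a reader that compacts chromatin, was at 708 and 690.0 in wild type, 411 and 389 in Mbd3abc KO, and 533 and 534 in Mbd3cΔN-ab KO, 1.75-fold and 1.31-fold lower. For both genes the wild type libraries were highest, the Mbd3cΔN-ab KO libraries in the middle and the Mbd3abc KO libraries lowest. Cbx6 was at 1511 and 1262 normalized reads in wild type, 863 and 947 in Mbd3abc KO, and 937 and 1109.8 in Mbd3cΔN-ab KO, 1.53-fold and 1.35-fold lower. Its exons overlap those of Npcd on the same strand, so reads of the 2 genes may not be separable. In Mbd3abc KO the DESeq2 log2 fold changes of the authors' deposited table were -0.81 ± 0.15 (SE) for Cbx7, -0.80 ± 0.13 for Cbx2 and -0.60 ± 0.17 for Cbx6, with adjusted p = 3.27e-07, 6.2e-09 and 0.000999. In Mbd3cΔN-ab KO the adjusted p in the authors' deposited table was 0.00845, 0.00928 and 0.0492 by DESeq2, the last just under the threshold.

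The 3 polyhomeotic genes, whose SAM domains polymerise and link PRC1 complexes, split by direction. Phc1 (chr6:122317731-122339657), the highest of the 22 genes per length in wild type, was at 7809 and 7457 normalized reads in wild type, 3509 and 3013 in Mbd3abc KO, and 4459 and 4968 in Mbd3cΔN-ab KO, 2.34-fold and 1.62-fold lower. Phc2 was at 444 and 444 normalized reads in wild type, 208 and 253 in Mbd3abc KO, and 275 and 222 in Mbd3cΔN-ab KO, 1.93-fold and 1.78-fold lower. Phc1 was lowest in Mbd3abc KO, while the 4 mutant libraries of Phc2 interleaved. Phc3, in contrast, was at 251 and 232 normalized reads in wild type, 585 and 556 in Mbd3abc KO, and 467 and 422 in Mbd3cΔN-ab KO, 2.36-fold and 1.84-fold higher. The DESeq2 log2 fold changes for Mbd3abc KO in the authors' deposited table were -1.21 ± 0.14 (SE) for Phc1, -0.93 ± 0.18 for Phc2 and 1.23 ± 0.15 for Phc3, with adjusted p = 6.59e-17, 1.95e-06 and 5.03e-15. Counted per kb of exon, wild type held 89.6 Phc1 reads for each Phc3 read, Mbd3abc KO 16.2 and Mbd3cΔN-ab KO 30.2. The ratio of Phc2 to Phc3 went from 5.17 in wild type to 1.14 and 1.57, so the 2 genes came close to equal levels in Mbd3abc KO, while that of Cbx7 to Cbx2 stood at 3.10 in wild type and 3.08 and 3.15 in the mutants.

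Bmi1, the Pcgf subunit that can replace Pcgf2 in canonical PRC1 (chr2:18677018-18686629), rose from near absence. It stood at 7.73 and 5.71 normalized reads in wild type, 85.1 and 48.7 in Mbd3abc KO, and 56.8 and 46.2 in Mbd3cΔN-ab KO. Both mutants were far above wild type, 9.95-fold and 7.68-fold by group means, and overlapped each other. The 2 wild type libraries together held 13 reads (95% Poisson interval 6.92 to 22.2, counting error only), so the size of the fold is imprecise. The authors' deposited table gave log2 fold changes by DESeq2, which are shrunken for genes with few reads, of 2.78 ± 0.51 (SE) and 2.32 ± 0.43, with adjusted p = 2.65e-07 and 9.1e-07. Even after the rise, Bmi1 remained the lowest of the 22 genes per kb of exon in Mbd3abc KO, at 18.7 ± 7.19 normalized reads per kb (SD, n = 2).

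In variant PRC1, the paired subunits Rybp and Yaf2, which occupy the same place in the complex and stimulate its ubiquitin ligase, both rose. Rybp was at 1509 and 1641 normalized reads in wild type, 2776 and 2917 in Mbd3abc KO, and 2447 and 2792 in Mbd3cΔN-ab KO, 1.81-fold and 1.66-fold higher. Yaf2 (chr15:93283833-93336935) was at 19.3 and 14.7 normalized reads in wild type, 165 and 154 in Mbd3abc KO, and 102 and 72.0 in Mbd3cΔN-ab KO, 9.38-fold and 5.13-fold higher. For both genes every mutant library was above both wild type libraries, and the wild type libraries together held 33 reads of Yaf2 (95% Poisson interval 22.7 to 46.3). The ratio of Rybp to Yaf2 per kb of exon was 50.3 in wild type, 9.47 in Mbd3abc KO and 16.6 in Mbd3cΔN-ab KO. In Mbd3abc KO the DESeq2 log2 fold changes of the authors' deposited table were 0.85 ± 0.12 (SE) for Rybp and 3.07 ± 0.32 for Yaf2, with adjusted p = 2.5e-12 and 5.74e-20, and in Mbd3cΔN-ab KO 0.72 ± 0.15 and 2.02 ± 0.38, with adjusted p = 6.14e-06 and 9.65e-07.

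The Pcgf subunits of the variant forms behaved alike where listed. Pcgf3, which shares with Pcgf5 the complexes that spread H2A ubiquitin broadly, was at 517 and 617 normalized reads in wild type, 1290.4 and 1078 in Mbd3abc KO, and 1102 and 857 in Mbd3cΔN-ab KO, 2.09-fold and 1.73-fold higher. Pcgf5 was at 68.2 and 91.3 normalized reads in wild type, 167 and 238 in Mbd3abc KO, and 140.2 and 169.8 in Mbd3cΔN-ab KO, 2.54-fold and 1.94-fold higher. The ratio of Pcgf3 to Pcgf5 per kb averaged 2.89 in wild type and 2.47 and 2.60 in the mutants, whose libraries lay apart. It was 3.06 and 2.72 in wild type, 3.11 and 1.83 in Mbd3abc KO, and 3.17 and 2.03 in Mbd3cΔN-ab KO. The 2 mutants overlapped for both genes. L3mbtl2 (chr15:81663889-81688315), the MBT domain subunit of the Pcgf6 complex, was the variant subunit that fell, from 2797 and 2604 normalized reads in wild type to 842 and 1181 in Mbd3abc KO, and 1436 and 1712 in Mbd3cΔN-ab KO. It was 2.67-fold and 1.72-fold lower, the strongest fall among the 22 genes in Mbd3abc KO. The adjusted p in the authors' deposited table, by DESeq2, was 3.41e-07 for Pcgf3, 0.000238 for Pcgf5 and 7.37e-09 for L3mbtl2 in Mbd3abc KO, and 0.00167, 0.00552 and 7.56e-06 in Mbd3cΔN-ab KO.

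All 3 PR-DUB genes were called in both mutants, with Asxl1 and Asxl2, alternative partners that activate Bap1, moving apart. Bap1, the deubiquitinase, was at 1798 and 1603 normalized reads in wild type, 963 and 1135 in Mbd3abc KO, and 1224 and 1156 in Mbd3cΔN-ab KO, 1.62-fold and 1.43-fold lower. Asxl1 was at 4723 and 4527 in wild type, 2450.2 and 3307 in Mbd3abc KO, and 2919 and 3609 in Mbd3cΔN-ab KO, 1.61-fold and 1.42-fold lower. Both were below wild type in every mutant library. Asxl2 was at 991 and 929.8 in wild type, 1489 and 1297 in Mbd3abc KO, and 1181 and 1578 in Mbd3cΔN-ab KO, 1.45-fold and 1.44-fold higher. Per kb of exon, the ratio of Asxl1 to Asxl2 was 6.52 in wild type, 2.84 in Mbd3abc KO and 3.22 in Mbd3cΔN-ab KO. The adjusted p of DESeq2 in the authors' deposited table was 0.000117 for Bap1, 0.00318 for Asxl1 and 0.000821 for Asxl2 in Mbd3abc KO, and 0.000741, 0.00924 and 0.0337 in Mbd3cΔN-ab KO.

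For every gene above, the mutant and wild type libraries did not overlap. The same held for 100% of all called genes of these 2 tables, so it says nothing particular to the Polycomb genes. Without overlap, a ratio of group means cannot change sign when 1 library is left out, so a stable sign there was fixed in advance. The DESeq2 refit on listed genes called 20 of the 22 members (10 higher, 10 lower) in Mbd3abc KO with every library kept. In Mbd3cΔN-ab KO it called 19 of the 21 (9 higher, 10 lower). Compared with the authors' calls, several were lost when a single library of either group was left out. How much of that loss comes from the refit itself was not tested. In such refits 1 group holds a single library, so the spread comes from the other group alone. For Mbd3abc KO, 16 of 22 members stayed past the threshold without the first or without the second wild type library, and 19 without the first or without the second mutant library. Eed and Asxl2 lost their call in each of these refits, Rybp without the first wild type library (adjusted p = 0.289, DESeq2) and the second (0.115), Jarid2 likewise (0.129 and 0.125), and Pcgf5 without the first wild type (0.318), the second wild type (0.0925) or the second mutant library (0.298). Pcgf3 lost it without the first wild type library (0.185), Phc3 without the second (0.0796) and Bmi1 without the first mutant library (0.0819). For Mbd3cΔN-ab KO, 8 of 21 members stayed without the first or without the second wild type library, 16 without the first mutant library and 18 without the second. Asxl1, Ezh1, Jarid2, L3mbtl2, Mtf2, Phc1 and Suz12 were called in all 4 of those refits, and no member changed sign in any.

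Per kb of exon, the wild type levels of the 22 called genes spanned 3 orders of magnitude. In the Mbd3abc KO table Phc1 and Jarid2 led, at 1962 ± 63.9 and 1742 ± 24.6 normalized reads per kb (SD, n = 2), and did not overlap. L3mbtl2 (712 ± 36.0), Asxl1 (694 ± 20.8) and Eed (689 ± 31.7) came next and did not differ beyond their spread, followed by Cbx7 (581 ± 25), Bap1 (502 ± 40.9) and Rybp (360.5 ± 21.4). Suz12 (223 ± 15.9) and Rnf2 (222 ± 17.7) were level with each other in wild type. At the low end stood Pcgf5 (53.3 ± 10.9), Phc3 (21.9 ± 1.19), Yaf2 (7.35 ± 1.41) and Bmi1 (1.88 ± 0.397), all of which rose in Mbd3abc KO. Only called genes are ranked here, and Yaf2 and Bmi1, with few wild type reads, owe their calls to their mutant levels. That selection may account for part of the rise seen at the low end. In Mbd3abc KO Jarid2 led at 1457 ± 101, and Eed (946 ± 158), Suz12 (942 ± 31.0), Mtf2 (856 ± 97.5) and Phc1 (838 ± 90.1) came next, each overlapping its neighbour.

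**Figure D2:**
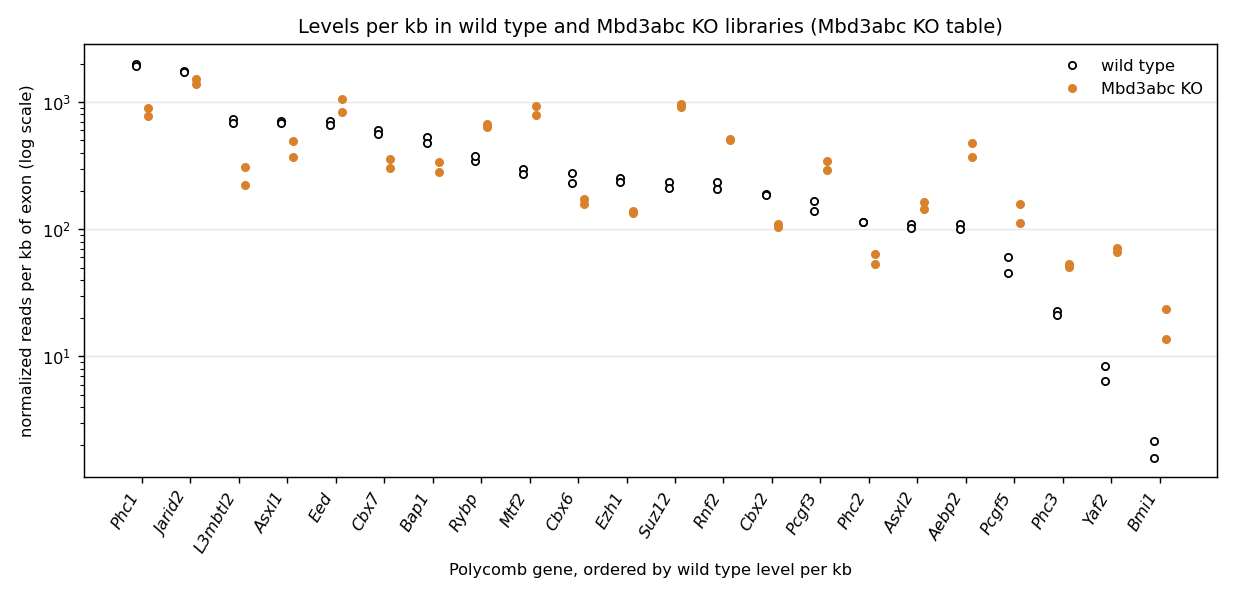
Levels of the 22 called Polycomb genes in normalized reads per kb of exon, on a log axis, with the genes ordered by wild type level. Open circles are the 2 wild type libraries and filled circles the 2 Mbd3abc KO libraries. Genes at the left, such as Phc1 at 1962 normalized reads per kb in wild type, mostly fell, and the lowest 4, from Pcgf5 to Bmi1, all rose. Only called genes are shown, and those with few wild type reads, Yaf2 and Bmi1, were called through their mutant levels.

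The direction of change among the Polycomb genes went with the GC content of the transcript, as it did among all called genes. With the called genes of Mbd3abc KO in 5 equal classes by transcript GC content, 98.4%, 86.1%, 45.0%, 20.7% and 10.4% were higher in the mutant, from the lowest to the highest class. In Mbd3cΔN-ab KO the shares were 99.2%, 92.9%, 42.3%, 14.1% and 6.28%. The 12 Polycomb genes that rose in Mbd3abc KO had a GC content of 38.2% to 52.3%, with a median of 43.2%, and the 10 that fell one of 49.1% to 59.8%, with a median of 54.9%. In Mbd3abc KO all 10 members in the lowest 2 classes rose and all 7 in the highest 2 fell, as most other genes of those classes did. Both directions occurred in the middle class, with Phc3 and Asxl2 higher and Jarid2, Ezh1 and Asxl1 lower. In Mbd3cΔN-ab KO the corresponding counts were 9 of 9 higher, 7 of 7 lower, and the same 2 higher and 3 lower in the middle class. Each canonical PRC1 gene that fell lay in the highest 2 classes, and each variant PRC1 gene that rose in the lowest 2, in both mutants. The part that GC content, or anything that varies with it, has in the changes of the Polycomb genes was not tested.

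Set beside the median of called genes in their own GC class, a few Polycomb genes lay well above it. In Mbd3abc KO the log2 ratio exceeded the class median by 2.25 in Yaf2, by 1.71 in Phc3, by 1.60 in Bmi1 and by 1.01 in Asxl2, and in Mbd3cΔN-ab KO by 1.52, 1.30, 1.55 and 0.95. Yaf2 and Bmi1, with few wild type reads, owe their calls to their mutant levels, and that selection favours a large excess. Phc3 and Asxl2 belong to the middle class, where 45.0% and 42.3% of called genes rose and the medians were -0.47 and -0.42. Any called gene that rose there exceeds the median by its direction alone. The log2 ratios of Asxl2 itself were 0.54 and 0.52, a small change. Suz12 exceeded it by 0.36 in Mbd3abc KO and 0.13 in Mbd3cΔN-ab KO, while Aebp2 lay above it in the first mutant, by 0.31, and below it in the second, at -0.48. L3mbtl2 and Phc1 lay below the median of their class in Mbd3abc KO, with differences of -0.55 and -0.36, and close to it in Mbd3cΔN-ab KO, at -0.05 and 0.04. Cbx2, Cbx6 and Cbx7 fell by less than the median gene of their class, with differences of 0.34, 0.53 and 0.33 in Mbd3abc KO and 0.54, 0.30 and 0.37 in Mbd3cΔN-ab KO. These differences are descriptions without a test.

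**Figure D3:**
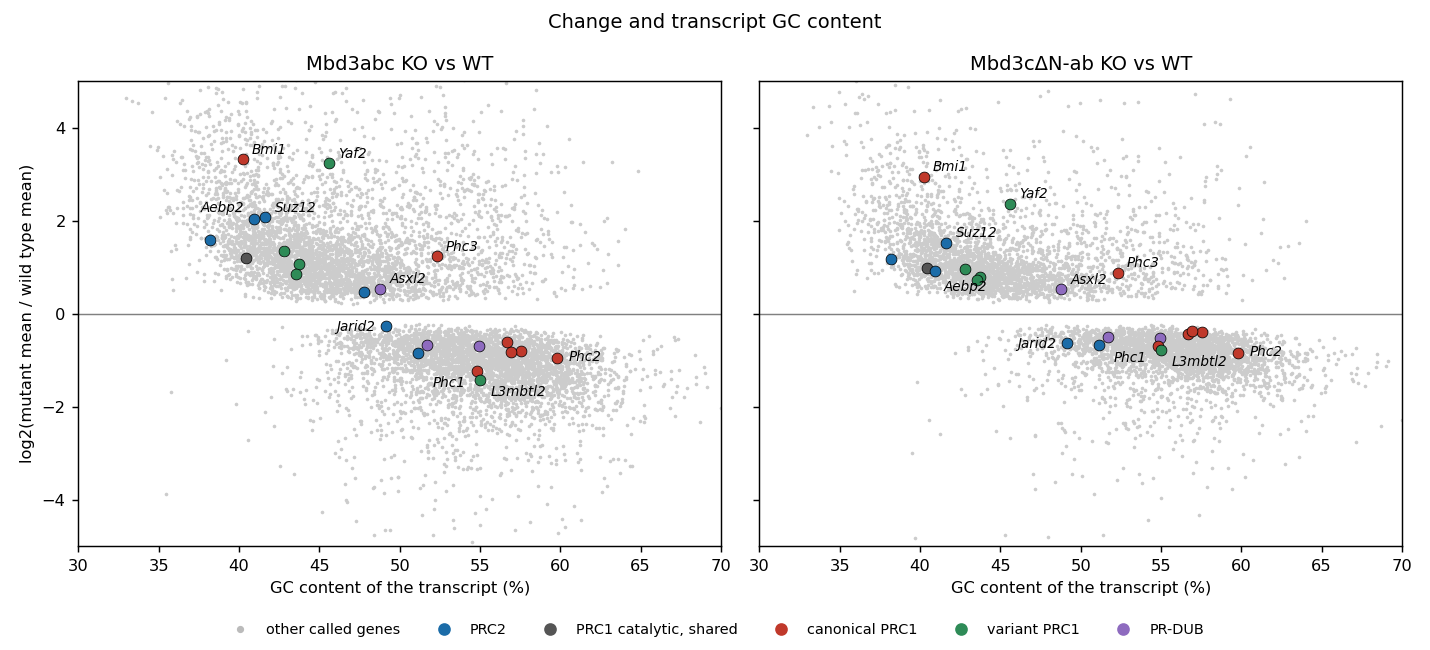
Log2 ratio of mutant to wild type means (vertical axis) against transcript GC content in percent (horizontal axis), for Mbd3abc KO on the left and Mbd3cΔN-ab KO on the right. Grey dots are all called genes within the axis limits and coloured points the Polycomb genes by complex. The coloured points follow the grey cloud from upper left to lower right, with Phc3, at a GC content of 52.3%, the rightmost of those that rose.

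Some markers of other cell types were called in the same mutants, and these small counts were not tested against the shares of all genes. Of 6 fibroblast markers 3 were called in Mbd3abc KO, against 52.1% of all genes, and their summed level was 1278 and 1214 normalized reads in wild type and 809 and 902 in the mutant. Fbln1, which makes up most of that sum in wild type, fell from a mean of 1027 to 274 and Col1a1 from 48.5 to 25.9, while Thy1 rose from 170.2 to 556. Of 4 neural markers 3 were called and lower, with sums of 2213 and 2293 in wild type and 876 and 1197 in the mutant, and Pax6 stood at 0 reads in both Mbd3abc KO libraries. Of 4 trophectoderm markers only Krt7 was called, at 7.73 and 8.98 in wild type and 53.2 and 31.5 in the mutant, and of 4 primitive endoderm markers none. In Mbd3cΔN-ab KO the counts were again 3, 3, 1 and 0, against 41.5% of all genes, with fibroblast sums of 1213 and 1160 in wild type and 736 and 742 in the mutant. There too Fbln1 (978 to 377) and Col1a1 (46.2 to 18.0) were lower and Thy1 (162 to 344) higher. The part of these differences in the Polycomb gene changes was not tested.

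Whether the change of a Polycomb gene differed between Mbd3abc KO and Mbd3cΔN-ab KO was tested directly with edgeR's quasi-likelihood test, on the 5404 genes called in both tables. Aebp2 and Phc1 passed, 2 of 21 members, against 6.68% of all 5404 genes. Aebp2 was higher in Mbd3abc KO than in Mbd3cΔN-ab KO by 1.08 on the log2 scale (edgeR adjusted p = 0.021), with both Mbd3abc KO libraries above both of the other mutant. Phc1 was lower by a log2 difference of -0.57 (edgeR adjusted p = 0.0486), again without overlap. The share of members called is near that background. Of the 361 genes called, 175 were higher (3.24% of the genes tested) and 186 lower (3.44%) in Mbd3abc KO, and with the authors' size factors 294 were called, 172 higher and 122 lower. Next in rank came L3mbtl2 (log2 difference -0.68, edgeR adjusted p = 0.0538), Suz12 (0.52, 0.0546), Cbx7 (-0.48, 0.0686), Cbx2 (-0.45, 0.0784) and Yaf2 (0.84, 0.0938), which missed the threshold. At an unadjusted p under 0.05 there were 7 members, against 32.4% of all genes. For 13 of the 21 members the libraries of the 2 mutants did not overlap, against 59.3% of all 5404 genes, a similar share. They overlapped for 8, among them Bmi1, Rybp, Pcgf3, Pcgf5, Phc2 and Asxl2. Asxl2 was the member nearest to no difference, with a log2 difference of -0.02. The call of Aebp2 was lost without each single library other than the second Mbd3abc KO library (edgeR adjusted p = 0.0521 to 0.0813), and that of Phc1 without any 1 of the 6 (0.0674 to 0.129). Neither gene passed with limma.

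**Figure D4:**
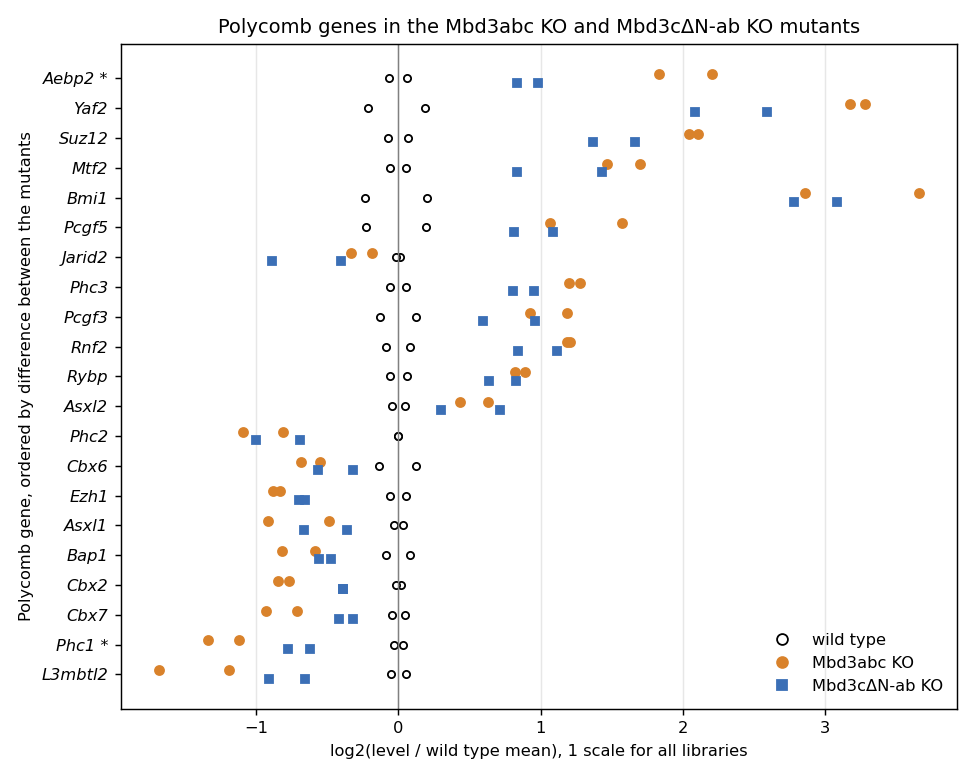
Levels of the 21 Polycomb genes called in both tables, as log2 of the ratio to the wild type mean on 1 scale, with genes ordered by the fitted difference between the mutants. Open circles are wild type, orange circles Mbd3abc KO and blue squares Mbd3cΔN-ab KO libraries, and a star marks the genes past the edgeR threshold. In Aebp2, at the top, both orange circles lie to the right of both blue squares, and in Phc1 both lie to the left.

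Other genes of the Polycomb system, on a list of 36 further subunits and partners, were called at a share somewhat above that of all genes, which was not tested. In Mbd3abc KO 23 of 36 were called, 13 higher and 10 lower, and in Mbd3cΔN-ab KO 19 of 36, 10 higher and 9 lower, against 52.1% and 41.5% of all genes. The strongest falls in Mbd3abc KO among those above the median level were Sfmbt2, an MBT domain protein (7.98-fold, from 1347 ± 17.1 to 169 ± 59.3 normalized reads, SD, n = 2), Bcor, the scaffold of the Pcgf1 complex (3.15-fold), and E130012A19Rik, which encodes Epop, an accessory protein of PRC2 (2.34-fold). The strongest rises were Yy1, a DNA-binding factor linked to Polycomb recruitment (2.48-fold, from 561 ± 60.1 to 1392 ± 77.4), Sfmbt1 (2.25-fold) and Mga, the DNA-binding subunit of the Pcgf6 complex (2.18-fold). In Mbd3cΔN-ab KO E130012A19Rik fell 2.63-fold, Sfmbt2 2.47-fold and Bcor 1.94-fold, while Yy1 rose 1.98-fold, Mga 1.70-fold and Ogt 1.45-fold. Sfmbt2 and Scmh1 were the 2 genes of this list called in Mbd3ab KO, 2.22-fold and 2.04-fold lower, against 3.35% of all genes called there.

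The enzymes that remove methyl groups from H3K27 also split. Kdm6b fell 2.44-fold in Mbd3abc KO and 1.56-fold in Mbd3cΔN-ab KO, and Kdm6a rose 1.67-fold and 1.5-fold. Uty, the Y-linked relative of Kdm6a, was lower in Mbd3abc KO at 60.4 ± 22.0 normalized reads in wild type and 18.8 ± 13.1 in the mutant. Of 33 developmental genes that are common Polycomb targets in embryonic stem cells, 6 were called in Mbd3abc KO, 3 higher and 3 lower, and 6 in Mbd3cΔN-ab KO, 3 higher and 3 lower, against 52.1% and 41.5% of all genes. Tbx3, the called target above the median level, rose 2.77-fold and 2.02-fold. The others that rose in both mutants were Eomes, at 6.47-fold and 3.38-fold, and Cdkn2a, at 2.70-fold and 2.82-fold, both at low levels and named after their values were seen. Those that fell in Mbd3abc KO were Pax6 (mean 18.2 to 0 normalized reads), Wnt5a (7.94 to 0.48) and Evx1 (5.43 to 0). In Mbd3cΔN-ab KO they were Pax6 (17.3 to 2.72), Hand1 (16.2 to 2.47) and Cdkn1c (149 to 93.2). All of these were at low levels too. In Mbd3ab KO 2 of the 33 targets were called, against 3.35% of all genes, Eomes 2.54-fold and Cdkn2a 5.19-fold higher. How many of the uncalled targets were expressed highly enough to be tested is not known here.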

How the data were processed

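The Polycomb genes and all gene lists were chosen with earlier results of these data known. TopHat2, HOMER and DESeq2 were used on build mm10, per the submitters' processing notes (versions: not given in the sources used here). HOMER counted reads over exons on 1 strand and condensed transcripts to genes, per the file headers. The authors deposited 4 tables, 1 per mutant, with only the genes selected in it. Their read columns are a normalized signal as deposited, scaled to equal totals, their log2 fold changes, p-values and adjusted p-values are those of DESeq2 per the file headers, and a deposited score column, the DESeq2 statistic, was not used. For Mbd3abc KO and Mbd3cΔN-ab KO, 100% of values were whole multiples of a step per library (within 0.1 read), so reads were recovered by division. Levels are these reads divided by size factors recovered from the authors' mean column. The number of genes tested was solved for from each gene's p, rank and adjusted p. Genes listed at an adjusted p of 0.05 or more (9 in Mbd3abc KO, 11 in Mbd3cΔN-ab KO, 1 in Mbd3ab KO) were not counted as called.

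The main test was the authors' DESeq2 call at an adjusted p of 0.05. The mutants were compared with edgeR 4.0.16 (quasi-likelihood, TMM) on recovered reads of 5404 genes. Wild type reads were equal in both tables for all 5413 genes with the same transcript, and the fit held the wild type and both mutants. Refits with DESeq2 1.42.0, edgeR and limma 3.58.1 (R 4.3.3) used listed genes only, so their spread comes from selected genes. Tested on simulated data, the edgeR contrast recovered 92.4% of 2-fold changes with 5.42% false calls (5404 genes), and the DESeq2 refits recovered 66.3% (Mbd3abc KO, 8141 genes) and 74.0% (Mbd3cΔN-ab KO, 6000 genes). The simulation gave all genes and groups the same spread and changed only a small share of genes, unlike these data. Its shares check that the code runs as meant and do not carry over to the real comparisons. Transcript GC content came from GENCODE M21 and was found for 99.7% of called genes in each large table. Replicate libraries differed by more than sampling noise, with a mean chi-square per degree of freedom of 5.72 for wild type and 23.0 for Mbd3abc KO, over genes with at least 20 reads. Every listed Polycomb gene is described with its value in each library. Of related genes, at most the 3 with the largest fold in each direction above the median level are named, and exceptions are stated.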

Additional observations from a re-analysis of the deposited data

Results flagged for a closer look

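For 2 of 21 Polycomb genes the effect differed between Mbd3abc KO and Mbd3cΔN-ab KO by edgeR's quasi-likelihood test of the difference. This share is near the 6.68% called among all 5404 genes tested. Both calls depended on single libraries, as described above. For Aebp2 the log2 difference was 1.08, with both Mbd3abc KO libraries (2847 and 2205 normalized reads) above both Mbd3cΔN-ab KO libraries (1104 and 1224). Its edgeR adjusted p was 0.021. Over the alternatives that kept all libraries, the adjusted p ranged from 1.6e-06 by DESeq2 to 0.0714 by limma on log2(normalized reads + 0.5). For Phc1 the log2 difference was -0.57, with both Mbd3abc KO libraries (3509 and 3013) below both of the other mutant (4459 and 4968). Its edgeR adjusted p was 0.0486. Over the alternatives that kept all libraries, the adjusted p ranged from 0.00381 by DESeq2 to 0.119 by limma on log2(normalized reads + 0.5).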

How the results depend on the processing

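No ratio of a Polycomb gene to wild type changed sign under any alternative run. For the runs without 1 library this was fixed in advance, since mutant and wild type libraries did not overlap. Among the differences between the mutants, 3 that passed no test changed sign. Bmi1 went from 0.35 to -0.14 without the first Mbd3abc KO library and Phc2 from -0.15 to 0.04 without the first Mbd3cΔN-ab KO library. Asxl2 went from -0.02 to 0.01 with the authors' size factors, 0.03 with limma, and 0.09 and 0.17 without the second library of Mbd3abc KO or of Mbd3cΔN-ab KO. When a change of 2-fold or more was required, the count of members called went from 22 to 11 (9 higher, 2 lower) in Mbd3abc KO and from 21 to 4 (4 higher, 0 lower) in Mbd3cΔN-ab KO. Leaving out 1 library gave 16 to 19 members in Mbd3abc KO and 8 to 18 in Mbd3cΔN-ab KO. The other settings, a threshold of 0.01, genes above the median level and refits with DESeq2, edgeR and limma, gave 19 to 21 members in Mbd3abc KO and 14 to 21 in Mbd3cΔN-ab KO. Between the mutants, 361 genes and 2 members were called by edgeR, 702 and 5 by DESeq2 with its own size factors, 294 and 1 by edgeR with the authors' size factors, 45 and 0 by limma on log2(normalized reads + 0.5), 47 and 0 by limma with + 1, and 11 to 373 genes and 0 to 2 members when 1 library was left out. The 5 members of DESeq2 were Aebp2, Phc1, Suz12, L3mbtl2 and Cbx7. The cause of these differences was not tested. No paired analysis was possible because the deposited columns carry no replicate numbers of the labels. Refits were not run for Mbd3ab KO and Mbd3c KO, where no Polycomb gene was listed. With 2 libraries a group and tables of selected genes, a gene not listed has no value, and the few reads of Bmi1 and Yaf2 in wild type limit their folds.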
